A study of Drosophila melanogaster with 14 samples.

Results

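The miR-309 cluster of Drosophila melanogaster is a run of 8 miRNA hairpins, and the results below follow the 8 mature arms listed for it in a table of 466 arms. The arms were chosen by name: dme-miR-286-3p, dme-miR-309-3p, dme-miR-3-3p, dme-miR-4-3p, dme-miR-4-5p, dme-miR-5-5p, dme-miR-5-3p and dme-miR-6-3p (written below without the species prefix dme), where 3p and 5p name the strand of the hairpin from which an arm is cut. The libraries were made from total RNA of whole embryos, 2 from each of 7 labelled stages and 14 in all, and the labels number the stages 1 to 7 with times of 160, 300, 530, 645, 930, 1160 and 1300 min. The labels give no starting point for these times, no strain, no genotype and no treatment, and they do not say whether both libraries of a stage came from separate collections. All p-values therefore measure the spread between these libraries, which may be technical. No library was labelled earlier than 160 min, so the onset of the cluster was not sampled.

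A miRNA is cut from a hairpin in a longer transcript, loaded into an Argonaute protein and pairs with target mRNAs mainly through its seed, bases 2 to 8 counted from the 5′ end. The miR-309 cluster is known as one of the first groups of miRNAs transcribed from the zygotic genome in the fly blastoderm, and flies that lack it keep many maternal mRNAs for longer than normal. Its members differ in seed: miR-309 and miR-3 share one, and miR-286 has that of miR-279 and miR-996. miR-4-3p has that of miR-79 and was grouped here with the 3p arms of miR-9 as well. miR-6-3p has that of the K-box miRNAs (the miR-2, miR-11, miR-13 and miR-308 group), several of which restrain pro-apoptotic genes. These groupings are general knowledge of fly miRNAs and were not read from sequences here.

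In the Ensembl release 115 annotation, on dm6 coordinates, the hairpins lie on the minus strand of chromosome arm 2R between positions 19660716 and 19661774, a span of 1059 bp. From 5′ to 3′ the order is mir-309, mir-3, mir-286, mir-4, mir-5, mir-6-1, mir-6-2 and mir-6-3, with gaps of 42 to 73 bp between neighbours. All 8 hairpins fall inside the single exon of the long noncoding RNA CR44504, at 19659645 to 19661847, and the first begins 73 bp from the 5′ end of that transcript. None is in a coding region or an annotated UTR. miR-6-3p can come from 3 of the hairpins, and the table has 1 row for it, so the copies cannot be separated.

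The table holds read counts, with totals of 17462 to 72507 per library, so 1 count was worth 13.8 to 57.3 CPM (counts scaled to the same total in every library). Of the 8 arms, 7 were abundant enough to enter the test across all arms, which covered 85, and miR-309-3p was not. Libraries of the same stage differed by more than counting noise at all 7 stages (chi-square test of their counts over arms). Stage 7 was among the most uneven, and its effect on the cluster is given where it arises. Intervals on counts below are exact binomial at 95%, and these and the limits for a count of 0 cover counting error only, since the reads carried no molecular identifiers.

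The summed cluster took most of the miRNA reads of the early embryo and much less later. It held 68.7% ± 1.42 of the library at stage 1, 60.8% ± 0.380 at stage 2 and 63.0% ± 1.11 at stage 3 (SD, n = 2 at each stage). It then held 36.96% ± 5.56 at stage 4, 20.1% ± 2.46 at stage 5 and 12.8% ± 2.00 at stage 6. At stage 7 the libraries were far apart, at 10.3% and 24.9%. The 6 libraries of stages 1 to 3 all lay above both stage 4 libraries, which lay above the 6 libraries of stages 5 to 7. In RNA from whole embryos, fewer cells that hold a miRNA and less of it per cell cannot be told apart, and shares of a library also move when other miRNAs rise.

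**Figure D1:**
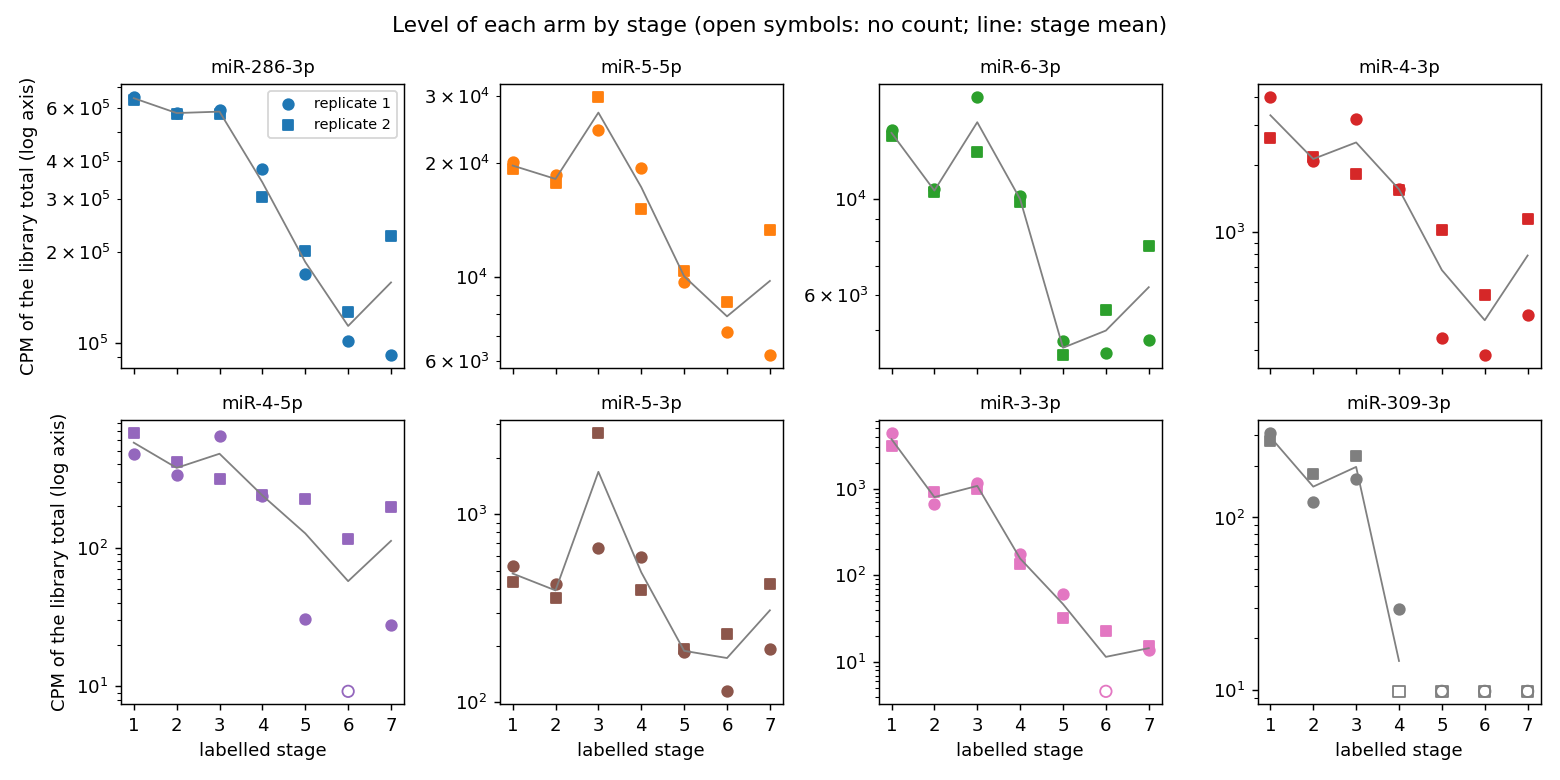
Level of each of the 8 arms (CPM of the library total, log axis, vertical) in each of 14 libraries by labelled stage (horizontal); symbols mark the replicate, open symbols at the lower edge libraries without a count, and the line the stage mean. miR-3-3p drops at stage 2 and again at stage 4, while miR-286-3p stays between 57.3% and 65.3% of the library until stage 3 and is lower from stage 4.

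miR-286-3p set the level of the whole cluster. Its counts in the 2 libraries of each stage were 23291 and 16087 at stage 1, 18909 and 19147 at stage 2, 28432 and 20219 at stage 3, 12791 and 20024 at stage 4, 5487 and 6336 at stage 5, 1771 and 5512 at stage 6, and 6644 and 14914 at stage 7. As a share of the library it stood at 64.5% ± 1.14, 57.6% ± 0.341, 58.2% ± 1.21, 33.99% ± 5.21, 18.5% ± 2.38, 11.4% ± 1.78 and 15.9% ± 9.49 at stages 1 to 7 (SD, n = 2). No library of stages 5 to 7 reached the lowest of stages 1 to 3, and the stage 4 libraries lay between both groups.

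The levels of the 8 arms were far apart although their hairpins share a transcript. Summed over all libraries, miR-286-3p had 199564 counts, miR-5-5p 8772, miR-6-3p 5313 and miR-4-3p 900, and this order held in 14 of 14 libraries at each step. miR-3-3p followed with 399 counts, miR-5-3p with 295, miR-4-5p with 153 and miR-309-3p with 45. The annotated mature arms are 21 to 24 bases long, so levels per length keep nearly the same order, but differences in how well each arm is ligated into a library were not tested.

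The order of the rarer arms was not fixed. miR-4-3p was above miR-3-3p in 6 of 6 libraries of stages 5 to 7 and in 4 of 6 of stages 1 to 3. miR-3-3p was above miR-5-3p in 5 of 6 early libraries and in none of the 6 late ones. miR-5-3p and miR-4-5p were neighbours that exchanged places between libraries, with miR-5-3p higher in 11 of 14.

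The mean of stages 5 to 7 (late, 6 libraries) was compared with that of stages 1 to 3 (early, 6 libraries) by the quasi-likelihood test of edgeR, scaled by TMM (trimmed mean of M values) and fitted on all 14 libraries. All 7 tested arms of the cluster were lower late at an adjusted p of 0.05 (Benjamini-Hochberg, all 85 arms), where 29.4% of all tested arms were lower and 50.6% higher. Their median log2 fold change was -2.97, against 0.86 for all 85 arms. The same 7 arms also differed among the 7 stages, as did 81.2% of all tested arms, with adjusted p from 1.18e-09 for miR-3-3p to 0.0019 for miR-4-5p. In CPM, 6 of the 7 tested arms had every late library below every early one, as did 21.2% of all tested arms. The exception was miR-5-3p, for which 424 CPM in stage 7 replicate 2 lay above 359 CPM, the lowest early library. miR-3-3p, miR-4-5p and miR-5-3p would not have entered the test without libraries of stages 1 to 4. Their highest late values were 61.5, 223 and 424 CPM. Entry to the test thus favoured a fall late for these arms, and their calls are no separate support for one.

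miR-3-3p, at the 5′ side of the cluster, fell the most of the 7. Its counts were 156 and 78 at stage 1, 22 and 31 at stage 2, 56 and 35 at stage 3, 6 and 9 at stage 4, 2 and 1 at stage 5, 0 and 1 at stage 6, and 1 and 1 at stage 7. The early and late libraries did not overlap, and the late level rested on 6 counts in all against 378 early. The log2 fold change in edgeR was -6.80 ± 0.44 (adjusted p = 5.34e-11). The ratio of pooled counts on the TMM scale was 154 with an interval of 70.2 to 423. By library size alone the fall was smaller, as given below.

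miR-309-3p, the first hairpin of the cluster, was the least abundant arm. It had 11 and 7 counts at stage 1, 4 and 6 at stage 2, 8 and 8 at stage 3, 1 and 0 at stage 4, and no count in any of the 6 late libraries. For a fold limit, the late group was set to 3 counts and the early counts were taken as exact. On this basis the late level was at least 35.9-fold lower than the early one on the TMM scale. By library size it was at least 18.4-fold lower. Its counts, at most 11 in a library, were high enough for the filter in too few libraries, so no adjusted p is given for it.

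miR-286-3p ranged from 573281 to 652738 CPM early (median 584287) and from 91633 to 225870 late (median 147618). Its log2 fold change late against early was -2.97 ± 0.21 (adjusted p = 2.18e-10). miR-4-3p, the more abundant strand of its hairpin, ranged from 1815 to 4008 CPM early (median 2384) and from 286.3 to 1151 late (median 478). Its log2 fold change was -3.08 ± 0.37 (adjusted p = 3.43e-07), and miR-4-5p, the other strand, gave -3.14 ± 0.54 (adjusted p = 3.14e-05). For all 3 of these arms the groups stood apart.

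miR-5-5p and miR-6-3p, from the 3′ side of the cluster, had the values nearest to zero, and the difference from the other arms was not tested. miR-5-5p ranged from 17755 to 29976 CPM early (median 19711) and from 6248 to 13312 late (median 9178), a log2 fold change of -2.18 ± 0.23 (adjusted p = 7.06e-08). miR-6-3p ranged from 10420 to 17300 CPM early (median 13461) and from 4373 to 7800 late (median 4716), a log2 fold change of -2.31 ± 0.23 (adjusted p = 3.37e-08). Neither arm had a late library as high as its lowest early one. miR-5-3p, the rare strand of the mir-5 hairpin, gave -2.57 ± 0.42 (adjusted p = 1.81e-05).

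The direction late against early was the same for the 7 arms under each scaling run, but its size was not. By library size alone the log2 fold changes ran from -5.86 for miR-3-3p to -1.22 for miR-5-5p. With only arms of a mean count of at least 50, where 4 of the 7 were tested, they ran from -3.87 for miR-4-3p to -2.96 for miR-5-5p.

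Changes between neighbouring stages were read from the same fit. From stage 1 to stage 2, miR-3-3p alone passed, lower by -2.49 ± 0.53 on the log2 scale (adjusted p = 0.00183), where 2.35% of all tested arms were lower and 15.3% higher. The other 6 arms had log2 fold changes between -0.91 and -0.35 that did not pass in edgeR. In DESeq2, 4 of the 7 passed at this step: miR-3-3p, miR-286-3p, miR-5-5p and miR-6-3p, all lower. DESeq2 called 19 of all 85 tested arms at this step, in either direction.

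From stage 2 to stage 3 no arm of the cluster passed in edgeR, and 0% of all tested arms were higher or lower at the threshold. At an unadjusted p of 0.05 in edgeR there was 1 cluster arm, miR-5-3p (2.20 ± 0.68), among 14 of all 85 tested arms. Stage 3 replicate 2 held 95 of the 127 stage 3 counts of miR-5-3p. DESeq2 called no cluster arm and 2 of all 85 tested arms. The median of the 7 arms was 0.62, against 0.05 for all tested arms.

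From stage 3 to stage 4, labelled 115 min apart, 6 of the 7 arms were lower, where 16.5% of all tested arms were lower and 18.8% higher. miR-3-3p had the largest fall, at -3.67 ± 0.59 (adjusted p = 0.000104), followed by miR-5-3p at -2.58 ± 0.67 (adjusted p = 0.00532). miR-286-3p gave -1.63 ± 0.35 (adjusted p = 0.00138), which is -0.85 ± 0.18 per labelled hour, against -1.91 ± 0.31 per hour for miR-3-3p. Close together below these were miR-4-3p at -1.58 ± 0.59 (adjusted p = 0.0445), miR-5-5p at -1.50 ± 0.40 (adjusted p = 0.00547) and miR-6-3p at -1.47 ± 0.39 (adjusted p = 0.00547). miR-4-5p, with 42 counts at stage 3 and 24 at stage 4, had -1.90 ± 0.83 and did not pass (adjusted p = 0.0745). At stage 4 miR-3-3p was at 177 and 136 CPM and miR-4-5p at 236 and 242 CPM. Neither would have entered the test without libraries of stages 1 to 3. Entry to the test thus favoured a fall at this step for both arms, and the call of miR-3-3p is no separate support for one.

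This count moved with 1 library and with the scaling: 2 arms passed without stage 4 replicate 2 and 3 by library size alone. It was 5 with DESeq2 size factors in edgeR and 5 in DESeq2 itself, where 36 of all 85 tested arms were called in either direction. For the other settings the number over all tested arms is not given, so a general change in calls cannot be told from one of the cluster. The call of miR-4-3p was lost in 6 other settings and without either library of stage 2, 4 or 6 or stage 3 replicate 1, that of miR-6-3p (-1.13) without stage 3 replicate 1, and that of miR-5-3p (-1.40) without stage 3 replicate 2, which held 95 of its 127 stage 3 counts. Without stage 4 replicate 2 the calls of miR-5-5p (-1.26), miR-6-3p (-1.37) and miR-5-3p (-2.23) were lost too, and those of miR-5-5p (-0.65) and miR-6-3p (-0.59) by library size alone. miR-3-3p and miR-286-3p passed at this step in each setting in which they were tested.

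From stage 4 to stage 5, 2 arms were lower in edgeR, where 8.24% of all tested arms were lower and 5.88% higher. DESeq2 called 18 of all 85 tested arms at this step, in either direction. For the fits below that left out a library, the number over all tested arms is not given. The 2 cluster arms lower in edgeR were miR-6-3p at -1.41 ± 0.39 (adjusted p = 0.0162) and miR-286-3p at -1.17 ± 0.35 (adjusted p = 0.0244). The other 5 had values of -1.88 to -1.07 with larger errors or weaker tests and did not pass. The count was 0 when stage 4 replicate 1, stage 5 replicate 1 or stage 5 replicate 2 was left out, 1 without either stage 3 library, and 3 in DESeq2.

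From stage 5 to stage 6 and from stage 6 to stage 7 no arm of the cluster passed in edgeR, none had an unadjusted p under 0.05 and DESeq2 called none; 0% of all tested arms were called at either step. The medians of the 7 arms were -0.49 and 0.60, against 0.00 and 0.20 for all tested arms. Without stage 7 replicate 1, miR-286-3p passed as higher at stage 7 than at stage 6.

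**Figure D2:**
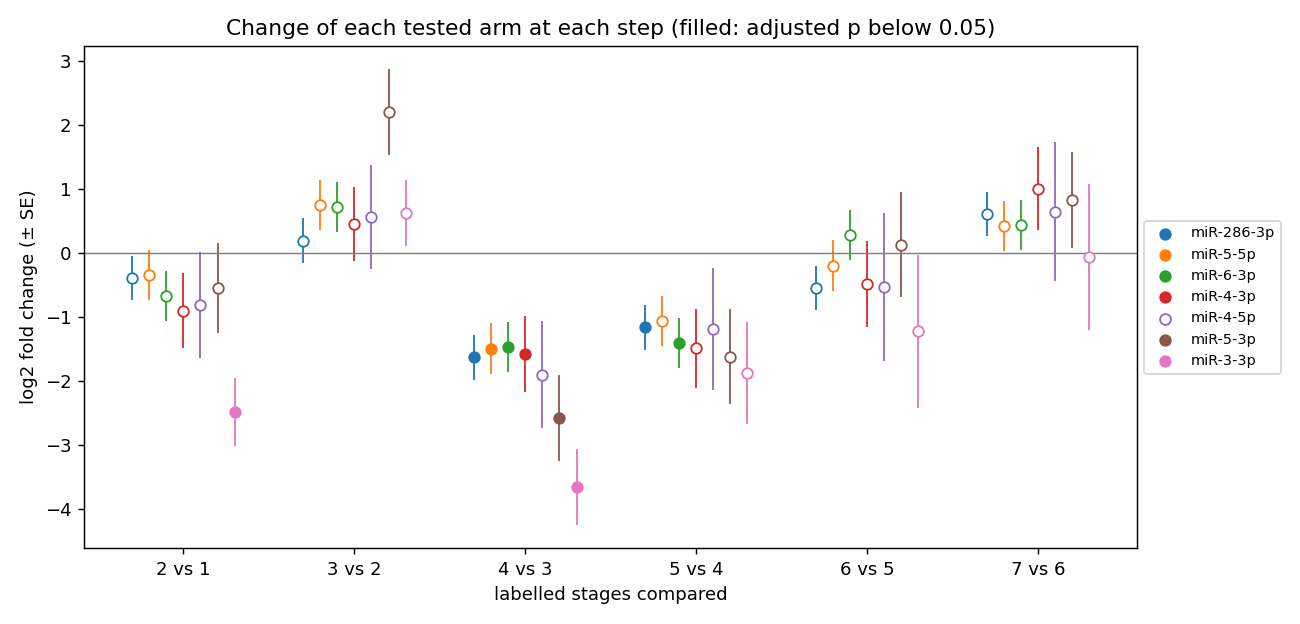
Log2 fold change between neighbouring stages (vertical, bars are standard errors) for the 7 tested arms at each of 6 steps (horizontal); filled points have an adjusted p below 0.05. At the step from stage 3 to stage 4 all 7 points lie below zero and 6 are filled, and at the step from stage 1 to stage 2 only miR-3-3p, at -2.49, is.

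The uneven libraries of stage 7 touched most of the cluster. Replicate 2 had 2.46 times the CPM of miR-286-3p in replicate 1 (interval 2.39 to 2.54), 2.69 times that of miR-4-3p (1.75 to 4.23), 2.13 times that of miR-5-5p (1.90 to 2.39) and 1.65 times that of miR-6-3p (1.44 to 1.90). In all, 6 of the 7 tested arms were at least 1.5-fold higher in replicate 2, as were 34.1% of all tested arms. The exception was miR-3-3p, with 1 count in each. Without stage 7 replicate 2 the late against early changes of the 7 arms were between -6.83 and -2.45, each called.

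Within the cluster, the mix of arms was compared between the 6 late and the 6 early libraries by an exact two-sided permutation test of the log2 ratio of an arm to the rest of the cluster, with 0.5 counts added to each. There were 14 such tests on shares, strands and seed classes, given unadjusted, and the smallest p the design allows is 0.00216. Libraries of 1 stage are not independent draws of early or late development, so these p-values describe the split of these libraries only.

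miR-286-3p made up 93.6% ± 1.06 of cluster counts early and 90.5% ± 1.52 late (SD, n = 6 each), a log2 difference of -0.63 (p = 0.00649, exact permutation test). By stage its share was 93.8%, 94.7%, 92.3%, 91.9%, 92.2%, 89.4% and 89.8%. The groups met at 1 library, stage 5 replicate 2 with 92.6%, which lay inside the early range of 92.1% to 94.7%.

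The shares of miR-5-5p and miR-6-3p in the cluster were higher late. miR-5-5p rose from 3.39% ± 0.787 of the cluster early to 5.64% ± 0.601 late (SD, n = 6 each), a log2 difference of 0.79 (p = 0.00433, exact permutation test). miR-6-3p rose from 2.06% ± 0.361 to 3.35% ± 0.960, a log2 difference of 0.68 (p = 0.0195, exact permutation test, n = 6 each). Both are shares of a falling sum, and the level of each arm fell, as given above. Their stage means were not even: miR-6-3p held 1.72% at stage 2, 2.28% at stage 5 and 3.90% at stage 6.

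miR-3-3p lost its place in the cluster as well as its level. Its share was 0.281% ± 0.210 early and 0.0140% ± 0.0113 late (SD, n = 6 each), with no overlap. The log2 difference was -3.42 (p = 0.00216, exact permutation test). Late libraries had 0 to 2 counts, so the size of this difference depends on the added count. Pooled shares were 0.280% early and 0.0134% late. Within the early stages its share was 0.542% ± 0.121 at stage 1, 0.132% ± 0.0305 at stage 2 and 0.171% ± 0.0161 at stage 3 (n = 2 each). Stage 1 stood above the other early stages in both libraries.

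miR-309-3p was 0.0326% of pooled early cluster counts, and 0 of 44882 late ones, which allows up to 0.00668%. Its log2 difference of -2.10 (p = 0.00433, exact permutation test, n = 6 each) was set by the added count, since all late libraries were at 0. The shares of miR-4-3p (0.408% ± 0.108 early, 0.359% ± 0.116 late), miR-4-5p (0.0738% ± 0.0217 and 0.0510% ± 0.0417) and miR-5-3p (0.135% ± 0.147 and 0.135% ± 0.0431) did not pass, with p of 0.498, 0.223 and 0.359 (exact permutation tests, n = 6 each). The early mean of miR-5-3p was raised by stage 3 replicate 2, at 0.433%. Its log2 difference was 0.46 with that library, and without it the share was higher late, by 0.88 (p = 0.00866, exact permutation test).

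**Figure D3:**
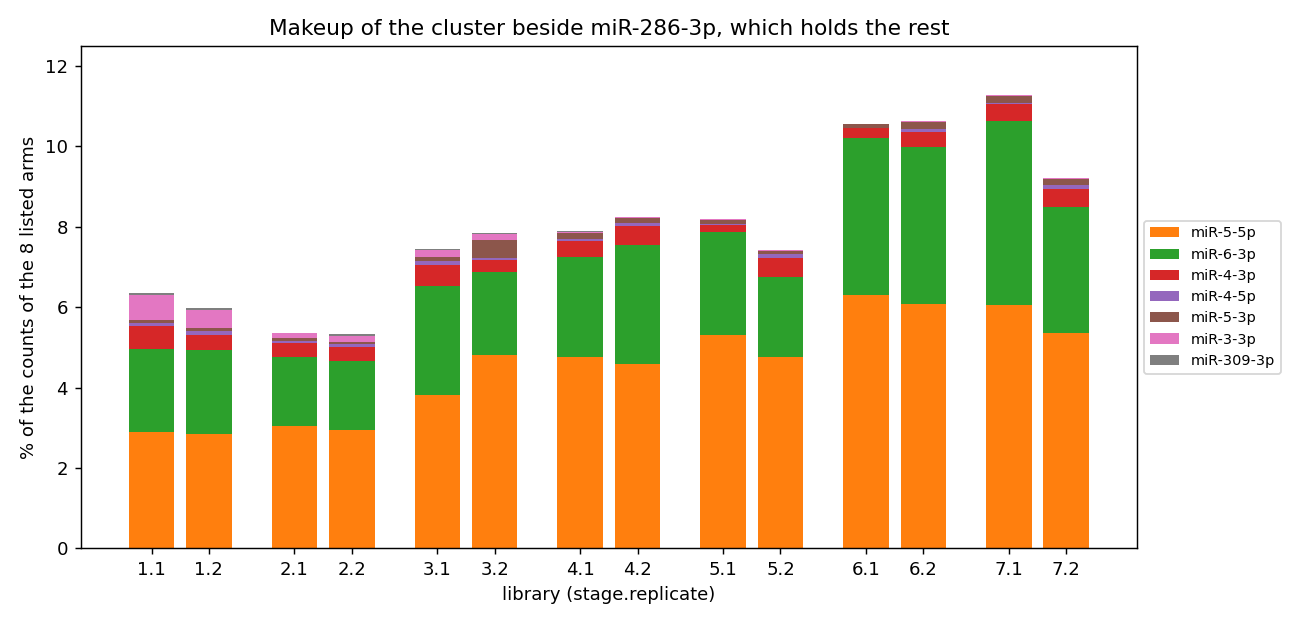
Percent of cluster counts (vertical) held by each arm other than miR-286-3p in each of 14 libraries (horizontal), as stacked bars from 0; miR-286-3p holds the rest. miR-5-5p and miR-6-3p are the main blocks throughout, with 2.87% and 2.07% at stage 1 and 6.20% and 3.90% at stage 6.

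The mir-4 and mir-5 hairpins each gave counts on both strands, and both strands of a hairpin are cut from the same precursor. For mir-4 the 3p strand dominated. It had 143 and 66 counts at stage 1 against 17 and 17 for the 5p strand, 68 and 72 against 11 and 14 at stage 2, 154 and 64 against 31 and 11 at stage 3, and 53 and 102 against 8 and 16 at stage 4. At stages 5 to 7 it had 11 and 32 against 1 and 7, 5 and 23 against 0 and 5, and 31 and 76 against 2 and 13. The 3p strand was the higher one in every library.

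The 3p share of miR-4 was 84.5% ± 3.28 early and 89.2% ± 7.22 late (SD, n = 6 each), and the pooled shares were 84.9% and 86.4%. The log2 difference of the strand ratio was 0.35 (p = 0.286, exact permutation test), and early libraries ran from 79.5% to 89.4% and late ones from 82.1% to 100%. The late library at 100% had 5 counts in all, and the groups overlapped.

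For mir-5 the 5p strand dominated instead. miR-5-5p had 719 and 487 counts at stage 1, 608 and 593 at stage 2, 1175 and 1057 at stage 3, 661 and 998 at stage 4, 317 and 325 at stage 5, 125 and 375 at stage 6, and 453 and 879 at stage 7. miR-5-3p had 19 and 11, 14 and 12, 32 and 95, 20 and 26, 6 and 6, 2 and 10, and 14 and 28 counts at the same stages. The 95 counts of stage 3 replicate 2 stand out, beside a miR-5-5p count like that of the other stage 3 library.

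In that library the 3p strand was 8.25% of miR-5 counts (95 of 1152, interval 6.72% to 9.99%), and in the other 13 it was 1.57% to 3.09%. Early and late means were 3.32% ± 2.43 and 2.32% ± 0.656 (SD, n = 6 each), a log2 difference of the strand ratio of -0.29 (p = 0.524, exact permutation test). Without stage 3 replicate 2 the difference was 0.02, so its sign rested on that library. Of 15 hairpins in the table with both strands tested, 7 (46.7%) differed late against early at an exact permutation p under 0.05. The median size of change over the 15 was 0.56, and neither mir-4 nor mir-5 was among the 7. Among the 7, mir-927 had no early count on either strand, so its early ratio was set by the added count.

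**Figure D4:**
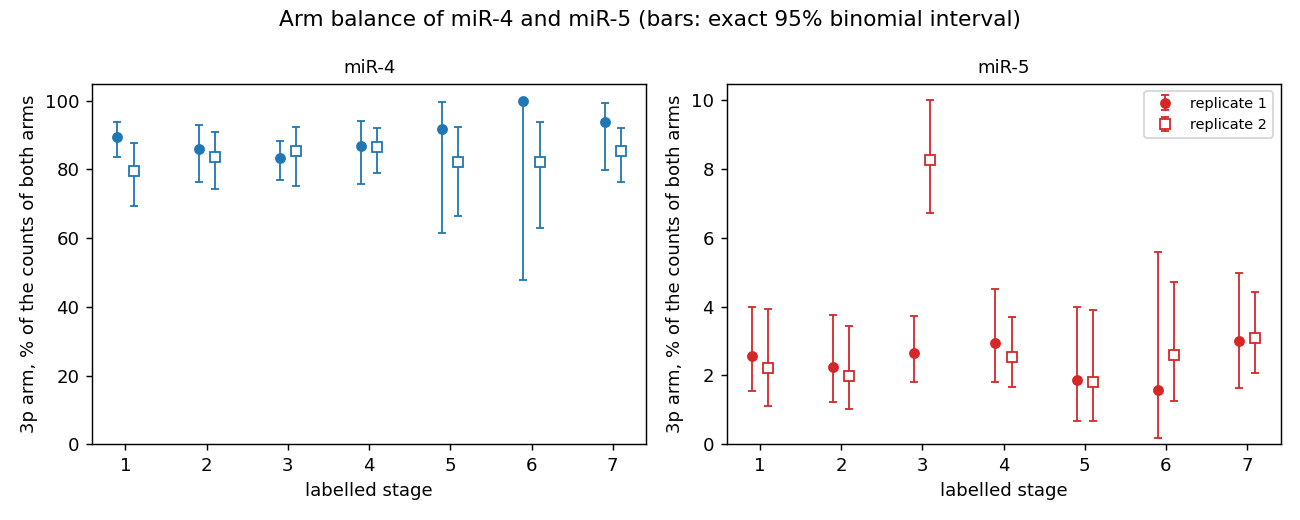
Share of the 3p strand (percent, vertical) among the counts of miR-4 and of miR-5 in each library by labelled stage (horizontal), with exact 95% binomial intervals as bars. miR-4 lies between 79.5% and 100%, and miR-5 lies between 1.57% and 3.09% but for stage 3 replicate 2 at 8.25%.

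Counts on the remaining strands of the hairpins were few. miR-286-5p had 51 counts, 0.0255% of its hairpin (interval 0.0190% to 0.0336%), and the 5p strands of the mir-6 hairpins had 58, or 1.08% (0.821% to 1.39%). miR-309-5p had 11 beside 45 of miR-309-3p, or 19.6% (10.2% to 32.4%), and miR-3-5p had 0 beside 399, which allows up to 0.752%. The strands of the cluster were thus most unequal for miR-286 and least for miR-309 and miR-4 among the hairpins with counts on both.

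The arms of the cluster also differ in how much of their seed class they supply. miR-286-3p supplied nearly all of its class, with 126085 early counts against 549 of miR-279-3p, known for blocking the formation of CO2-sensing neurons, and miR-996-3p, its neighbour. Its share was 99.6% ± 0.112 early and 97.4% ± 0.917 late (SD, n = 6 each), a log2 difference of the ratio of -2.60 (p = 0.00216, exact permutation test), with no overlap. Even at the lowest late library, 96.5% of the class was miR-286-3p. Late against early in edgeR, miR-996-3p fell (-1.23 ± 0.34, adjusted p = 0.00215), a call that was lost by library size alone (-0.25), and miR-279-3p did not pass (-0.26 ± 0.28, and 0.72 by library size alone). A ratio within a library does not depend on that scaling.

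miR-6-3p was a large part of the K-box class at stage 1 and a small part from stage 5 on. Its share of the class was 53.9% and 50.6% at stage 1, 29.3% and 27.2% at stage 2, 36.9% and 33.2% at stage 3, 18.5% and 18.0% at stage 4, 13.0% and 11.5% at stage 5, 14.2% and 13.95% at stage 6, and 13.3% and 14.5% at stage 7. The log2 difference of the ratio was -1.99 (p = 0.00216, exact permutation test, n = 6 each), and early and late libraries did not overlap. Both stage 7 libraries were alike in this share although their levels of miR-6-3p differed. How reads that match several loci were counted is not given, so the size of these shares is uncertain.

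The rest of the class was mostly miR-11-3p, encoded in an intron of the cell-cycle gene E2f1, with 11546 counts in all, followed by miR-2b-3p with 4419 and miR-2a-3p with 2013. In edgeR late against early, miR-2b-3p fell (-0.67 ± 0.23, adjusted p = 0.0116), but by library size alone its value was 0.30. miR-11-3p (-0.23 ± 0.21), miR-13b-3p (-0.36 ± 0.30) and miR-2a-3p (0.05 ± 0.25) did not pass, and by library size alone they were at 0.75, 0.60 and 1.01. miR-6-3p was lower late under both scalings.

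miR-4-3p supplied 81.4% ± 5.69 of its class early and 59.2% ± 16.5 late (SD, n = 6 each), a log2 difference of the ratio of -1.58 (p = 0.0152, exact permutation test). The rest was mainly miR-9b-3p, with 257 counts, which itself fell late (-1.62 ± 0.36, adjusted p = 0.000345, edgeR; -0.65 and not passed by library size alone). Late libraries ran from 37.9% to 80.0% and the early ones from 75.0% to 89.4%, so the groups overlapped. The class of miR-309-3p and miR-3-3p had 1 count outside the cluster, of miR-318-3p, and its ratio could not be read at this depth.

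**Figure D5:**
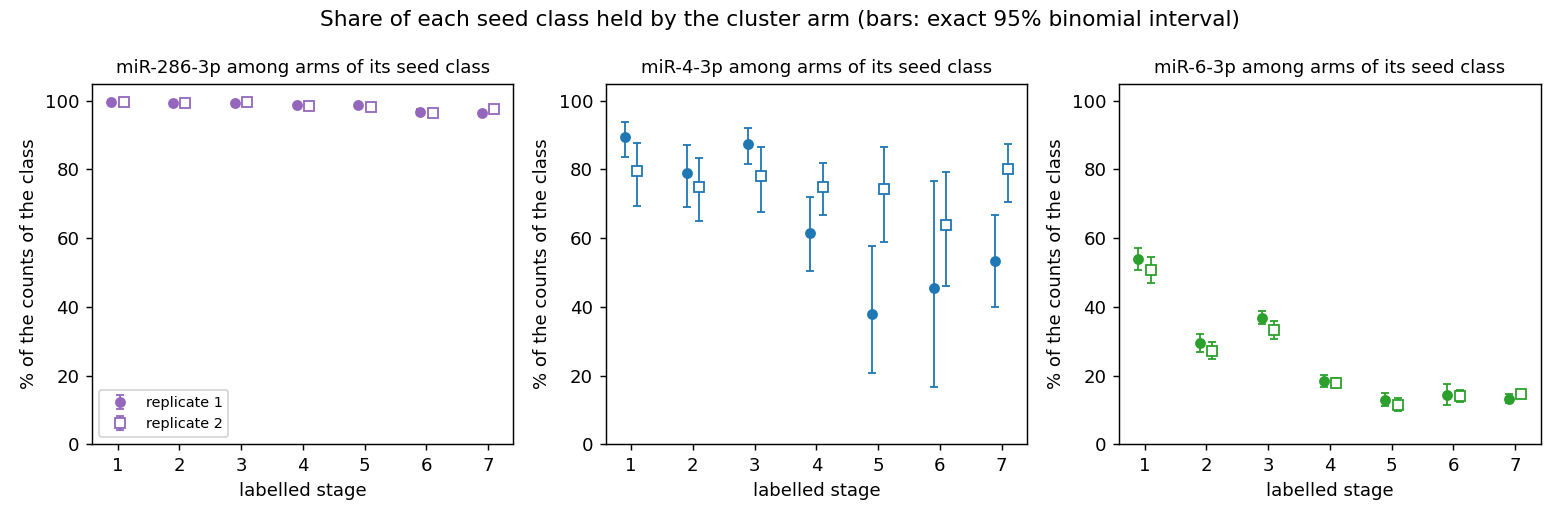
Share of a seed class (percent of class counts, vertical) held by miR-286-3p, miR-4-3p and miR-6-3p in each library by labelled stage (horizontal), with exact 95% binomial intervals as bars. miR-286-3p stays at 96.5% or more and miR-6-3p goes from 52.3% at stage 1 to 13.9% at stage 7. The seed of miR-9b-3p, counted in the class of miR-4-3p, was not checked, and counts of arms with several loci are uncertain.

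The 7 tested arms followed each other closely over the stage means of log2 CPM, with Pearson's r from 0.834 (miR-3-3p and miR-5-3p) to 0.997 (both strands of miR-4) over 7 stages. These values share libraries and scaling and are given as a description. The tested arms outside the cluster most like its sum were miR-312-3p (r = 0.997), miR-305-3p (0.993), miR-92a-3p (0.993), miR-995-3p (0.993) and miR-310-3p (0.993). Members other than miR-286-3p, which makes up most of that sum, gave 0.894 to 0.996. Late against early, these outside arms had log2 fold changes of -4.50, -2.06, -3.90, -2.38 and -4.95 in the same order. Neither the profile nor the fall was thus particular to the cluster. With miR-286-3p left out of the sum they were miR-92a-3p (0.992), miR-9b-5p (0.988), miR-305-3p (0.988), miR-9c-5p (0.985) and miR-312-3p (0.984).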

How the data were processed

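Small RNA was measured in 14 embryo libraries. Per the labels' protocols, TRIzol-extracted RNA (1 ng per library) went through a reduced-volume TruSeq small RNA preparation with 15 PCR cycles. The authors deposited raw read counts per mature arm, as whole numbers that sum to 17462 to 72507 per library. Bowtie, HTSeq and dm6 are named, without versions, per the submitters' processing notes. How reads that match several loci were counted is not given in the sources used here, so counts of near-identical arms, miR-6-3p and the miR-2 group among them, are uncertain.

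The labels gave the groups but no replicate numbers, and libraries were numbered by accession within a stage. CPM levels were computed on library totals. In R 4.3.3, edgeR 4.0.16 (TMM, filterByExpr by stage, 1 coefficient per stage, 7 residual degrees of freedom) tested 85 arms, with a Benjamini-Hochberg threshold of 0.05. Members that failed the low-count filter (1 of 8) were not tested. log2 CPM used a prior count of 2. Alternatives were DESeq2 1.42.0 and its size factors, library size with and without the cluster, other filters, an added count of 1, stages 6 and 7 against 1 and 2, and leaving out each library. Leaving out both stage 4 replicate 1 and stage 7 replicate 2 was chosen after seeing the data. The code was tested on simulated data. Shares were tested in Python 3.11.15 with scipy 1.17.1 and drawn with matplotlib 3.10.9.

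Members, lists and tests were chosen with earlier results of these data known. Named arms are the 8 members, the other strands of their hairpins, arms of the same seed class with at least 100 counts, and the 5 arms most like the cluster with and without miR-286-3p. Outside this rule is miR-318-3p, named after its value was seen.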

Additional observations from a re-analysis of the deposited data

Results flagged for a closer look

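In 44 groups of 4 to 10 libraries, 7 values stood far from the other libraries of their group. The nominal rate of about 1 in 20 groups assumes independent values of 1 kind. These groups pool stages and reuse the same counts, so the number is not set against chance. Of the 7 values, 3 come from the same 95 counts of miR-5-3p in stage 3 replicate 2. They gave 2694 CPM, 0.433% of the cluster and a 3p share of miR-5 of 8.25%, each above the other early libraries. The share of miR-6-3p in the cluster was high in stage 3 replicate 1, at 2.71%. Stage 7 replicate 2 was high among the late libraries for miR-5-3p (424 CPM) and for miR-6-3p (7800 CPM). The share of miR-309-3p and miR-3-3p in their seed class was 98.8% in stage 1 replicate 2, where the single count of miR-318-3p lay. Strands of the hairpins outside the 8 listed arms also had counts above the 3 that a count of 0 allows: miR-286-5p 51, miR-309-5p 11, miR-6-1-5p 22 and miR-6-2-5p 36. No cause was tested for any of these values.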

How the results depend on the processing

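No paired analysis was possible because the labels carry no replicate numbers. The late against early calls of the 7 tested arms held under each alternative in which an arm was tested. With a mean count of at least 50, 4 arms of the cluster were tested and all 4 passed late against early and among stages. Scaling by library size alone shifted the median late against early log2 fold change of all arms by 0.97, DESeq2 size factors by 0.45 and library size without the cluster by -0.23. The counts of cluster arms that follow are given without the number over all tested arms. A general change in calls thus cannot be told from one of the cluster. The number of cluster arms called from stage 1 to 2 was 1, and it became 2 with DESeq2 size factors, 4 with DESeq2, 0 when arms needed a mean count of at least 50, 4 with both stages alone and 3 without stage 4 replicate 1 and stage 7 replicate 2 together. From stage 2 to 3 it went from 0 to 1 with both stages alone and to 1 without those libraries. From stage 3 to 4 it went from 6 to 3 by library size alone, and to between 2 and 7 without 1 library. From stage 4 to 5 it went from 2 to 1 with DESeq2 size factors, by library size alone, with no filter and with that higher minimum, and to between 0 and 3 without 1 library. From stage 6 to 7 it was 0 to 1 without 1 library. With stages 6 and 7 against 1 and 2, the miR-309-3p share (-2.12) and the share of miR-4-3p in its class (-1.42) no longer passed, the miR-5-3p share passed (1.23), and the miR-5 strand ratio reversed (0.21). Without 1 library the miR-5 strand ratio ran from -0.40 to 0.0195, the last without stage 3 replicate 2, and the miR-5-3p share from 0.32 to 0.88, which passed without that library. Among single arms, leaving out 1 library changed 20 of 224 calls, all to not passed, and other settings 13 of 122. The causes were not tested. Depth limited miR-309-3p, the late miR-3-3p and the late miR-4-5p most.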
